A study of Sus scrofa with 41 samples.

Results

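The 7 genes described here are adipocyte and lipid storage genes, namely PLIN1, ADIPOQ, FABP4, LEP, SCD, LPL and CIDEC. They were taken by their pig gene symbol from the 25880 Ensembl genes counted in each library, and all 7 were found. The rule names the genes and sets no threshold on a measured value. The libraries came from the psoas major, the loin muscle under the spine, of 41 uncastrated male pigs of the purebred lines Danbred Duroc (13 pigs) and Danbred Landrace (28 pigs), called Duroc and Landrace below, with 1 library per pig. Within both lines the pigs were fed freely, were grown to a similar slaughter weight and were slaughtered in 5 batches. Each pig had a feed conversion ratio (FCR), an RNA integrity number (RIN, a score of how intact the RNA was) and an age at slaughter. The study asked which muscle genes follow feed efficiency, and the same model gives the terms for breed, RNA integrity and age.

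The 7 genes stand at different points of the route that carries fat into a cell and keeps it there. Lipoprotein lipase (LPL) sits on the inner face of capillaries, releases fatty acids from circulating triglycerides, and is made by muscle fibres as well as by fat cells. FABP4 is a fatty acid carrier protein of fat cells, macrophages and capillary endothelium, and SCD is the desaturase that makes monounsaturated fatty acids. PLIN1 and CIDEC are proteins of the large lipid droplet of the mature fat cell, where PLIN1 guards the droplet surface against lipases and CIDEC helps droplets fuse. ADIPOQ and LEP encode adiponectin and leptin, hormones that fat cells secrete. A muscle sample contains fat cells between its fibres and bundles, the fat that appears as marbling in meat, and Duroc pigs are known for it. In a bulk sample, fewer cells of a type and less RNA per cell cannot be told apart.

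The counts on genes ranged from 22188911 to 25954816 read pairs per pig, with a median of 25243577, and no library was left out. The tissue label held in every pig, since ACTA1, CKM and DES, genes of the contractile and energy machinery of muscle, together took between 102000 and 188000 CPM (read pairs of a gene scaled to a common library size with the TMM factors of edgeR). The Duroc pigs had lower FCR than the Landrace pigs, with a median of 1.94 (range 1.83 to 2.18) against 2.1 (1.92 to 2.25), and all values lay above 1. The study's methods word FCR as growth divided by feed, by which values above 1 would mean more weight gained than feed eaten, so FCR was read here as feed eaten per weight gained, and the directions given for FCR rest on that reading. The Duroc pigs were also younger, with a median of 148 days (131 to 156) against 154.5 days (147 to 166). The mean of Landrace minus that of Duroc was 0.133 for FCR and 7.85 days for age (two-sided permutation test, p = 7e-05 and 0.00013). The ranges of the breeds overlapped for both. RIN ranged from 7 to 8.8 in the Duroc and from 6.5 to 8.3 in the Landrace pigs (p = 0.0908). Slaughter batches 1 to 5 held 1, 15, 9, 5 and 11 pigs, and batch 1 held a single Duroc pig. Breed therefore moves with FCR and age in these pigs, and a breed coefficient from the joint model is a difference at equal FCR, RIN, age and batch.

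The genes were read at very different depths. Over the 41 pigs LPL (ENSSSCG00000040631) collected 140741 read pairs, FABP4 (ENSSSCG00000040681) 32034, ADIPOQ (ENSSSCG00000039103) 7216, SCD (ENSSSCG00000010554) 3497, PLIN1 (ENSSSCG00000001844) 1536, CIDEC (ENSSSCG00000011557) 1128 and LEP (ENSSSCG00000040464) 53. These totals depend on transcript length as well as abundance, so they say how precisely each gene was measured and do not rank the genes by expression. In the Sscrofa11.1 build LPL and SCD are both on chromosome 14, at chr14:4104761-4134964 and chr14:111461560-111478033. ADIPOQ (chr13:124633906-124646237) and CIDEC (chr13:66141836-66149801) are both on chromosome 13. PLIN1 is at chr7:55237517-55250797, FABP4 at chr4:55096400-55101209 and LEP at chr18:20106867-20124071. The counts were made without regard to strand. For CIDEC the strand-specific columns together held 1182 pairs, against 1128 in the unstranded column, so a few pairs were shared with a gene on the opposite strand. For SCD the same sums were 3498 and 3497, and for the other 5 genes they were equal.

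ADIPOQ, FABP4, SCD and LPL passed the default low-count filter of edgeR, which kept 11146 genes. PLIN1, LEP and CIDEC did not pass it, because most pigs had few reads of them, and their coefficients come from the same model fitted without a filter on 20225 genes. All 7 genes are accounted for below by their values in the pigs, and only the 4 that passed were tested with the filter.

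Among the genes of the fat cell itself, the mRNA of the hormone adiponectin ranged widely from pig to pig. ADIPOQ had a median of 2.15 CPM in the Duroc pigs, from 0.352 to 43.6, and of 1.32 CPM in the Landrace pigs, from 0.1 to 63.9. The lowest pig held 2 read pairs of ADIPOQ and the highest 1869. The ranges of the breeds overlapped largely, with 4 Landrace pigs below the lowest Duroc pig and 2 above the highest. Its coefficient of variation over the 41 pigs was 217%, and the 3 highest pigs held 62.4% of all its read pairs.

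PLIN1, the guard of the fat cell's lipid droplet, had a median of 0.438 CPM in Duroc (0 to 8.77) and 0.278 CPM in Landrace (0 to 13.7). No read pair of it was counted in 4 pigs, 1 Duroc and 3 Landrace, and a count of 0 allows up to 3 read pairs. The 3 highest pigs held 67.6% of its read pairs. CIDEC, the droplet fusion protein, was read in every pig, with a median of 0.572 CPM in Duroc (0.0391 to 7.54) and 0.417 CPM in Landrace (0.139 to 7.39), and 54.0% of its pairs came from 3 pigs. Both genes were thus close to the detection limit in most animals and well measured in a few.

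Leptin mRNA was hardly detected. LEP had reads in 12 of the 41 pigs, 3 Duroc and 9 Landrace, and the highest pig had 19 read pairs (0.631 CPM). Its 3 highest pigs held 69.8% of its 53 read pairs. Coefficients of LEP are printed below, but no conclusion is drawn from them, since the median of both breeds was 0 read pairs.

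The carriers and enzymes behaved otherwise. LPL was measured in every pig with at least 838 read pairs, with a median of 194 CPM in Duroc (109 to 267) and 110 CPM in Landrace (38.9 to 295). FABP4 had a median of 17.5 CPM in Duroc (9.49 to 52.7) and 32 CPM in Landrace (7.48 to 79.1). SCD had a median of 3.35 CPM in Duroc (1.14 to 7.3) and 2.56 CPM in Landrace (0.407 to 18.7). The coefficients of variation were 47.7% for LPL, 49.1% for FABP4 and 92.6% for SCD, against 178% to 263% for CIDEC, ADIPOQ, PLIN1 and LEP. LPL and FABP4 each had 16.8% of their read pairs in their 3 highest pigs, and SCD had 28.2%.

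**Figure D1:**
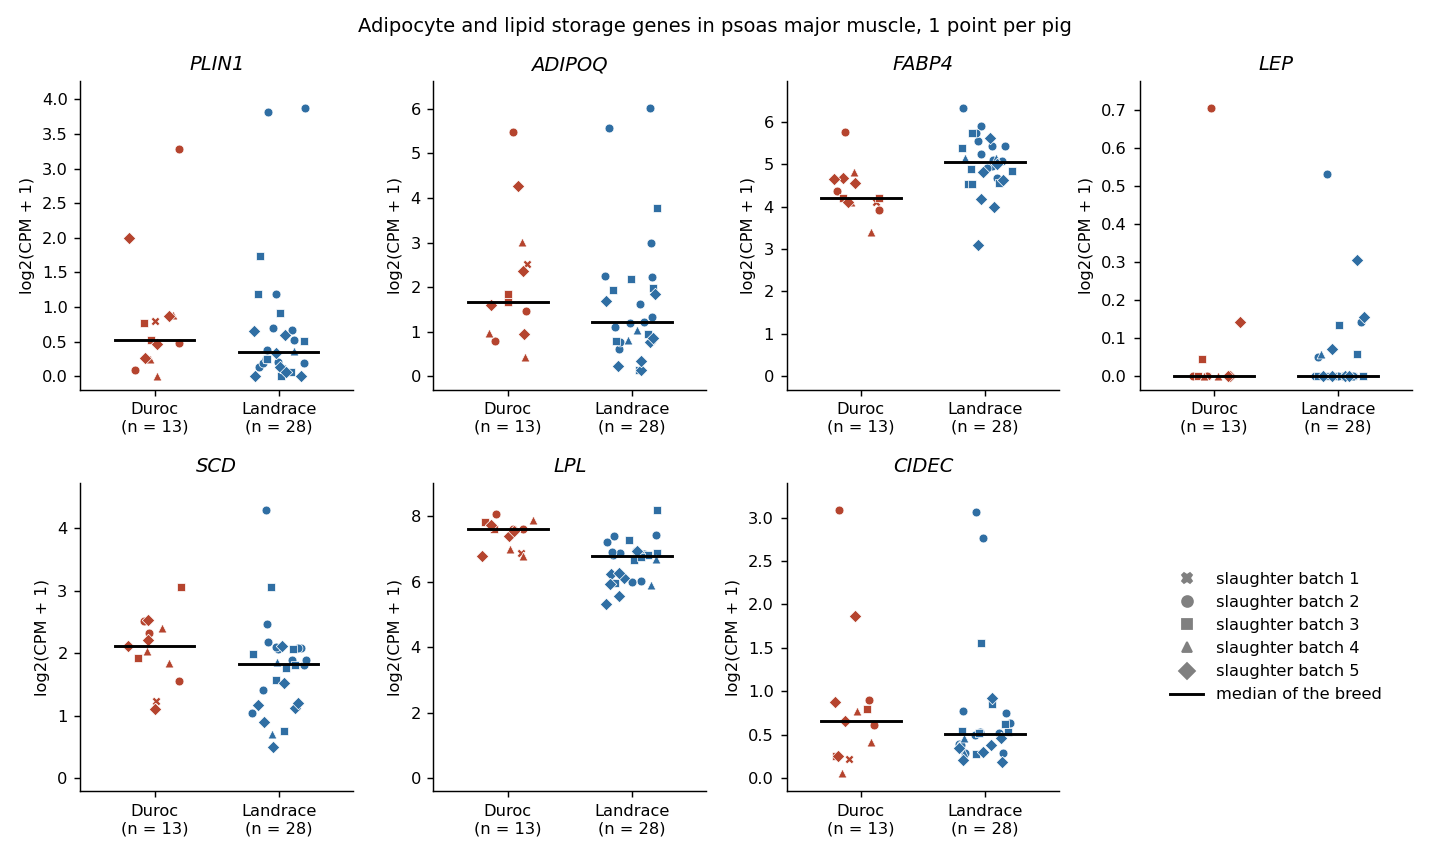
Level of each of the 7 genes in each pig, as log2(CPM + 1) on the vertical axis with its own scale in each panel, for 13 Duroc and 28 Landrace pigs. Symbols mark the slaughter batch and bars the median of the breed. The 3 pigs that stand above the rest for ADIPOQ also stand highest for PLIN1 and CIDEC. LPL and FABP4 are spread more evenly, although for FABP4 Duroc 1 (52.7 CPM) stands apart from the next Duroc pig (27.1 CPM). By the median, LPL is lower and FABP4 higher in the Landrace pigs.

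The same 3 pigs led several of the genes. They were Landrace 16, Duroc 1 and Landrace 4, all from slaughter batch 2, with 1869, 1312 and 1321 read pairs of ADIPOQ. In the same order they had 400, 264 and 374 read pairs of PLIN1 and 216, 227 and 166 of CIDEC. The next pigs for ADIPOQ, Duroc 5 and Landrace 8, had 528 and 359. FABP4 was counted 1535, 1588 and 2263 times in them. LEP reached 13 read pairs in Landrace 16 and 19 in Duroc 1 but only 3 in Landrace 4. SCD gave 547, 142 and 72 read pairs in the 3 pigs, so only Landrace 16 stood out for the desaturase. LPL, with 4331, 5831 and 3508 read pairs, did not set these pigs apart. Their RIN (8.3, 8.2 and 8.3), age (154, 145 and 149 days) and FCR (2.13, 1.97 and 2.17) lay inside the range of the other pigs. The summed level of 12 genes of fatty acid synthesis ranked 1, 4 and 2 of 41 in them, and that of 13 other fat cell genes 31, 17 and 16. PLIN4, with medians of 277 CPM in Duroc and 301 CPM in Landrace, made up most of the latter sum (medians 296 and 342 CPM). Those ranks therefore say little about its scarcer genes. The 3 highest pigs of each gene held 69.8% of the read pairs of LGALS12 and 68.0% of TRARG1, but 24.4% of PPARG and 10.0% of CFD. The sums ranked 39, 3 and 19 for triglyceride and droplet genes, 41, 5 and 9 for lipolysis and 39, 10 and 38 for lipid uptake. Among the markers of other cells the sums ranked 15, 11 and 18 for endothelium, 5, 3 and 21 for fibroblasts, 3, 21 and 17 for leukocytes, 38, 25 and 29 for slow fibres, 37, 33 and 27 for fast fibres and 35, 38 and 32 for the muscle genes. By these sums the 3 pigs shared a high rank for fatty acid synthesis and a low rank for the muscle genes. ACTA1, with medians of 99100 CPM in Duroc and 107000 CPM in Landrace, made up most of the muscle sum (medians 130000 and 137000 CPM). The fatty acid synthase FASN reached 111 CPM in the Landrace pigs, where the highest fatty acid synthesis sum was 235 CPM. These ranks therefore lean on single genes. The part of other cells in their fat cell genes was not tested.

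Across the 41 pigs the genes of the mature fat cell rose and fell together. PLIN1 and ADIPOQ had Pearson's r = 0.959 and Spearman's rho = 0.942 on log2(CPM + 1) (permutation p = 1e-05, the smallest 100000 permutations can give; adjusted over 21 pairs 7e-05 for r and 0.000105 for rho). PLIN1 and CIDEC had r = 0.950 (rho 0.700) and ADIPOQ and CIDEC r = 0.899 (rho 0.665). Leaving out the 2 pigs farthest from the median gave 0.948, 0.905 and 0.824 for these 3 pairs, and leaving out the 3 pigs named above gave 0.940, 0.805 and 0.742. Within batches 2, 3 and 5, r of PLIN1 with ADIPOQ was 0.982, 0.934 and 0.987, and batch 4 held too few pigs. After removal of FCR, RIN, age, breed and batch it was 0.956. PLIN1 and ADIPOQ were therefore tightly linked with and without the pigs at the top. The 2 pairs with CIDEC were looser by rank and without those pigs.

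**Figure D2:**
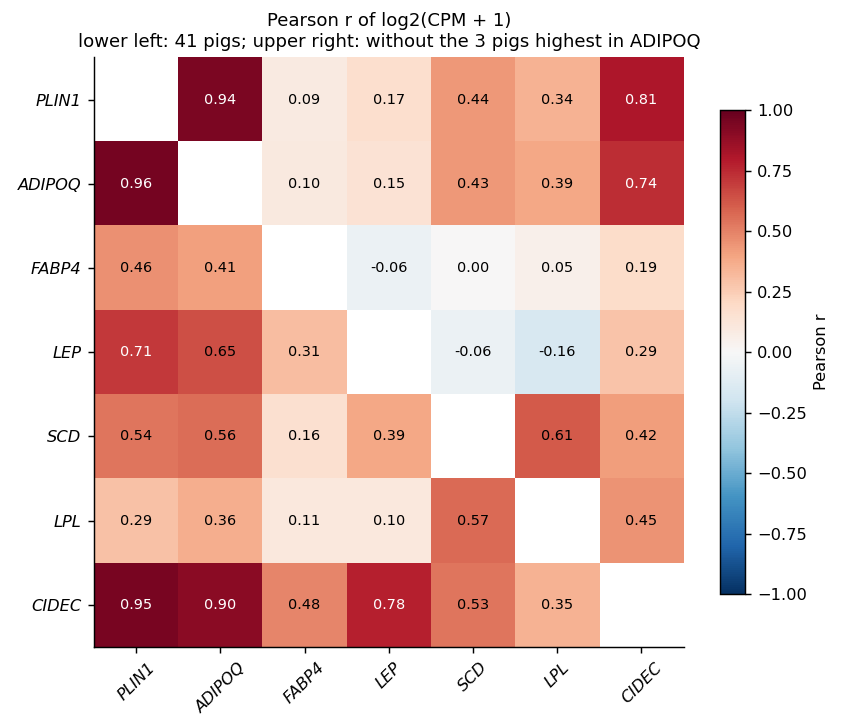
Pearson's r between each pair of the 7 genes on log2(CPM + 1), as colour and printed value, over 41 pigs in the lower left and without Landrace 16, Duroc 1 and Landrace 4 in the upper right. The pairs among PLIN1, ADIPOQ and CIDEC stay above 0.7 in both, and the pairs with LEP are lower in the upper right.

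The other 4 genes were tied to this set more loosely. SCD correlated with ADIPOQ at r = 0.555 (rho 0.416; adjusted permutation p = 0.00081 and 0.0186), and at 0.431 without the 3 pigs. LPL correlated most with SCD, at r = 0.566 (rho 0.546; adjusted permutation p = 0.000546 and 0.00126), and at 0.614 without the 3 pigs. Within batches 2, 3 and 5 the r of SCD with LPL was 0.220, 0.892 and 0.633, and it was 0.306 after the covariates, breed among them, were removed. LPL and ADIPOQ had r = 0.362 (rho 0.383; adjusted permutation p = 0.0284 and 0.0336), which fell to 0.176 after the covariates were removed.

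Over all pigs FABP4 and LPL had r = 0.106 (rho 0.035, adjusted permutation p = 0.531 and 0.873). After FCR, RIN, age, breed and batch were removed their r was 0.394, and it was 0.24 within the Duroc and 0.546 within the Landrace pigs. FABP4 and SCD had r = 0.162 (rho 0.047, adjusted permutation p = 0.345 and 0.848), and 0.066 after the covariates were removed. Its r of 0.414 with ADIPOQ (rho 0.234; adjusted permutation p = 0.012 and 0.182) became 0.10 without the 3 pigs and 0.224 without the 2 farthest pigs, so that relation rested on a few animals. The r of LEP with PLIN1 was 0.707 (rho 0.358) and with CIDEC 0.777 (rho 0.354), and both dropped, to 0.169 and 0.288, without the 3 pigs. Over all 21 pairs the median r was 0.485, and it was 0.288 without the 3 pigs. An adjusted p under 0.05 for r was reached by 16 of the 21 pairs, but not all of these reached it for rho. Beside ADIPOQ with FABP4, the adjusted permutation p for rho was 0.182 for PLIN1 with FABP4 and 0.0641 for ADIPOQ with LEP. It was 0.109 for FABP4 with CIDEC and 0.723 for LEP with SCD. PLIN1 with LPL reached it for rho only (adjusted permutation p = 0.0733 for r and 0.0418 for rho).

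**Figure D3:**
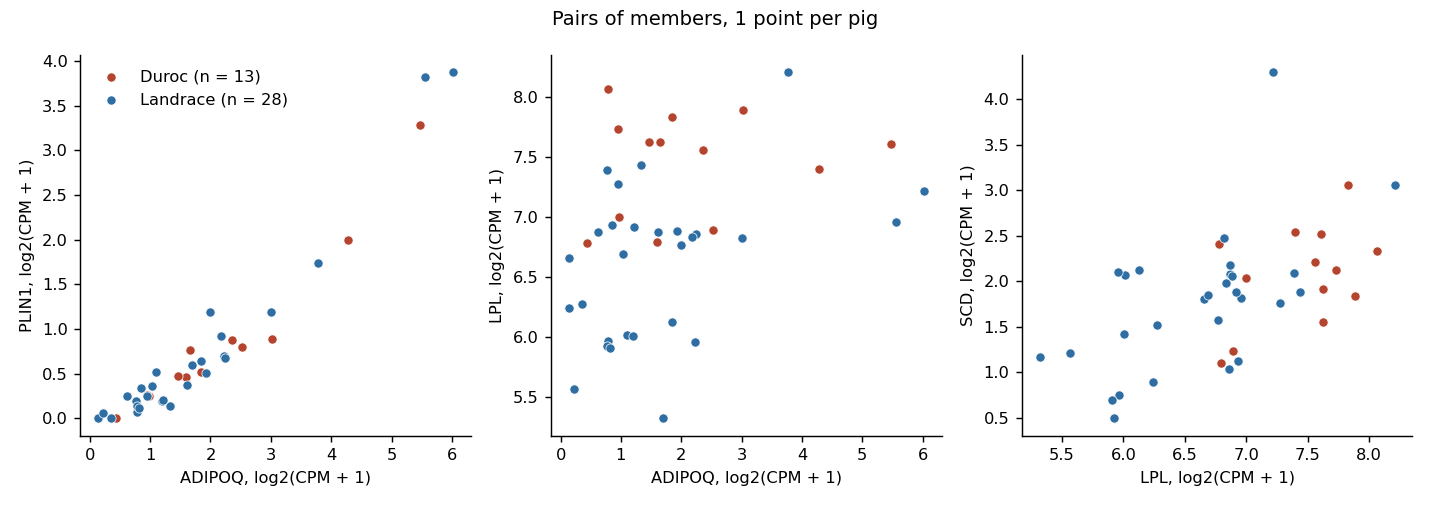
Levels of ADIPOQ against PLIN1, ADIPOQ against LPL and LPL against SCD, as log2(CPM + 1) on both axes, with 1 point per pig and the breeds in colour. PLIN1 follows ADIPOQ over the whole range (r = 0.959), whereas at a given ADIPOQ level the Duroc pigs lie mostly above the Landrace pigs for LPL.

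The genes outside the 7 whose pattern over the 41 pigs was most like that of each member were named from a ranking of 14899 genes by Pearson's r on log2(CPM + 1), as a description. TRARG1, a fat cell protein that takes part in trafficking of the insulin-sensitive glucose transporter, was nearest to PLIN1 (r = 0.949) and to ADIPOQ (r = 0.901), and ALDOC and SGK2 came next for both. DGAT2, the enzyme of the last step of triglyceride synthesis, was nearest to CIDEC (r = 0.953; 0.814 without the 3 pigs). For LEP the nearest genes were THRSP, a protein linked to fat synthesis (r = 0.823), and DGAT2 (r = 0.818), which fell to 0.197 and 0.340 without the 3 pigs.

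FABP4 was nearest to PPARG, the master transcription factor of fat cells (r = 0.703; 0.611 without the 3 pigs), and then to PRKAR2B (0.662) and ATP6V0A4 (0.651). SCD was nearest to GPC6 (r = 0.791) and to ACACA, the carboxylase that starts fatty acid synthesis (r = 0.765; 0.709 without the 3 pigs). The genes nearest to LPL were B3GLCT (r = 0.852), SCPEP1 (0.850) and MME (0.845), and they stayed at 0.864, 0.847 and 0.840 without the 3 pigs. Against the mean of the 7 genes, DGAT2 and ENSSSCG00000036274, a gene without a symbol in the table used, were nearest, both with r = 0.919.

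Between the breeds, LPL, SCD and ADIPOQ were lower in Landrace than in Duroc pigs in the joint model, and FABP4 did not pass the test. Of the 4 genes tested, 3 were called lower in Landrace at an FDR under 0.1 (edgeR quasi-likelihood test, Benjamini-Hochberg adjusted). The background was wide, since 17.5% of all 11146 genes tested were called lower in Landrace and 33.1% were called in either direction (1955 lower and 1737 higher; with scaling by library size alone, 3596 lower and 534 higher). The median breed coefficient of the 4 genes was -1.35, against -0.0024 over all genes tested.

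LPL had the firmest breed difference of the 7 genes. It was lower in Landrace by a log2 coefficient of -1.31 (SE 0.245, edgeR FDR = 0.000195, n = 13 and 28). Its mean level was 180 ± 51.2 CPM (SD) in Duroc and 106 ± 51.8 CPM in Landrace, a ratio of 1.70. Of the 28 Landrace pigs, 27 lay below the Duroc median and 14 below the lowest Duroc pig, while 1 lay above the highest. Taken alone without covariates, the difference in log2(CPM + 1) was -0.84 (two-sided permutation test, p = 0.0001). It was -0.99, -0.79, -0.93 and -1.32 within slaughter batches 2, 3, 4 and 5, so Landrace was lower in each batch that held both breeds. The medians in these batches were 196, 212, 127 and 178 CPM in the Duroc pigs and 116, 113, 80.5 and 68.9 CPM in the Landrace pigs. In batch 2 the ranges of LPL did not overlap, with 194 to 267 CPM in 3 Duroc and 61.2 to 172 CPM in 12 Landrace pigs. In batch 3 a Landrace pig at 295 CPM lay above both Duroc pigs, and the other 2 batches had Landrace pigs at up to 102 and 121 CPM, against lowest Duroc values of 109 and 110 CPM. The call stood in each alternative model tried and with each of the 41 pigs left out in turn (FDR from 7.77e-05 to 0.000885).

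SCD was lower in Landrace by -1.39 (SE 0.479, edgeR FDR = 0.0297). Its single-gene difference without covariates was only -0.30 (two-sided permutation test, p = 0.211), although it was negative in all 4 batches (-0.02, -0.63, -0.82 and -0.77). Without age in the model the coefficient was -0.85 (FDR = 0.139), and with RIN and batch alone beside breed it was -0.46 (FDR = 0.366). The call for the desaturase thus held at equal age and FCR, which differed between the breeds, and not in the plain comparison. Of the Landrace pigs, 23 lay below the Duroc median and 5 below the lowest Duroc pig.

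ADIPOQ had the largest coefficient and the least certain one, -2.67 in Landrace (SE 0.996, edgeR FDR = 0.0451). The limma-voom fit gave -0.68 (FDR = 0.648), the edgeR fit without FCR -1.68 (FDR = 0.213), and the fit with RIN and batch alone -0.67 (FDR = 0.559). DESeq2, which needed at least 5 counts in every pig, did not test ADIPOQ. The call was lost without Duroc 1 (-1.86, FDR = 0.256), without Landrace 8 (-2.25, FDR = 0.115) or without Duroc 5 (-2.44, FDR = 0.103). Without the 3 highest pigs together the coefficient was -1.91 (FDR = 0.0848). The plain difference in log2(CPM + 1) was -0.45 (two-sided permutation test, p = 0.366), with -0.34, -0.07, -0.56 and -1.46 in batches 2 to 5.

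In the fit without a filter, CIDEC was lower in Landrace by -1.82 (SE 0.723, edgeR FDR = 0.0879), and without the 3 highest pigs by -1.11 (FDR = 0.159). PLIN1 had a coefficient of -2.00 (SE 1.03, FDR = 0.207) and was not called. In this fit ADIPOQ, SCD, LPL and CIDEC, 4 of the 7 genes, were called lower in Landrace, where 10.9% of the 20225 genes were. The plain differences of PLIN1 and CIDEC were -0.14 each (two-sided permutation test, p = 0.669 and 0.583), within the spread between pigs.

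FABP4 went the other way in the plain comparison. Its mean level was 21.4 ± 10.6 CPM in Duroc and 34.3 ± 14.9 CPM in Landrace, and 25 of the 28 Landrace pigs lay above the Duroc median. The difference in log2(CPM + 1) was 0.64 (two-sided permutation test, p = 0.00361), with 0.68, 0.71, 1.04 and -0.02 in batches 2 to 5. The batch medians of FABP4 were 19.5, 17.5, 16.3 and 23.1 CPM in Duroc and 39.2, 27.4, 34.4 and 23.5 CPM in Landrace, and batch 5 had nearly equal medians. In the joint model the coefficient was 0.25 (SE 0.304, edgeR FDR = 0.576), and with RIN and batch alone it was 0.54 (FDR = 0.0668). In the plain comparison the breeds also differ in FCR and age, and the shares of these in the FABP4 difference cannot be told apart there. FABP4 and LPL, a carrier and a lipase that both act on fatty acids entering a tissue, thus had opposite plain breed differences.

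**Figure D4:**
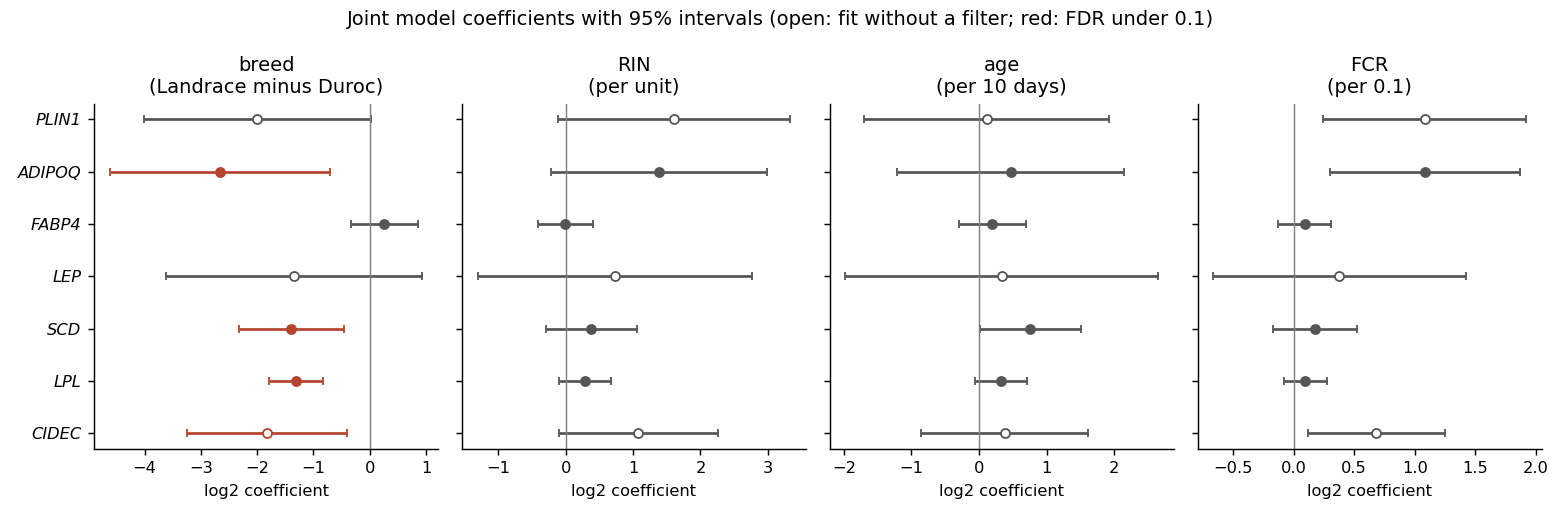
Coefficients of the joint edgeR model for each of the 7 genes on the log2 scale with 95% intervals, for breed (Landrace minus Duroc), RIN (per unit), age (per 10 days) and FCR (per 0.1). Filled points are genes that passed the filter, open points come from the fit without a filter, and red marks an FDR under 0.1. Red appears only in the breed panel, for ADIPOQ, SCD, LPL and CIDEC, and the intervals of PLIN1, ADIPOQ and LEP are the widest.

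The enzymes around SCD were compared next. Of 11 tested genes of fatty acid synthesis and its control, 5 were called lower in Landrace, where 17.5% of all genes were, and 2 higher, with a median coefficient of -0.55. MLXIPL, the carbohydrate-sensing transcription factor that drives fat synthesis, was lower by -2.00 (FDR = 8.58e-06), ACACA by -0.94 (FDR = 6.13e-05) and FASN, the fatty acid synthase, by -1.10 (FDR = 0.0789). FADS1, a desaturase of polyunsaturated fatty acids, was lower by -0.80 (FDR = 0.00937) and SREBF1, another transcription factor of fat synthesis, by -0.48 (FDR = 0.0901). FADS2, the partner desaturase of FADS1, was higher by 1.06 (FDR = 0.0715) and INSIG1, a brake on sterol synthesis, by 0.73 (FDR = 0.0777). With scaling by library size alone the last 2 were not called, 8 of the 11 were called lower, and the median breed coefficient of all genes was -0.18. With RIN and batch alone 3 were called lower and 2 higher, FADS2 (1.27, FDR = 0.01) and ME1 (0.31, FDR = 0.00927), where 1844 of all 11146 genes were called lower and 1707 higher. In that fit FASN (-0.44, FDR = 0.326), FADS1 (-0.19, FDR = 0.511) and SREBF1 (-0.12, FDR = 0.62) lost the call, as SCD did. Without the 3 pigs highest in ADIPOQ 4 of the 11 were called, and SREBF1 (FDR = 0.156), FADS2 (FDR = 0.118) and INSIG1 (FDR = 0.124) were not. Of all 11095 genes tested without those pigs, 3358 were called for breed, 1720 of them lower in Landrace.

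Among 16 tested genes of triglyceride synthesis and lipid droplets, 8 were called lower in Landrace (17.5% of all genes) and 1 higher, with a median coefficient of -0.28. PLIN5, the droplet protein of oxidative muscle that tethers droplets to mitochondria, was lower by -1.20 (FDR = 0.00655), GPAM, an enzyme of the entry step of triglyceride synthesis, by -1.18 (FDR = 0.000877) and DGAT2 by -1.68 (FDR = 0.0967). The DGAT2 call was lost with limma-voom (-1.22, FDR = 0.147) and with RIN and batch alone (-0.44, FDR = 0.575). GPAT3, of the same enzyme family as GPAM, was higher by 0.62 (FDR = 0.0999) and was not called under library-size scaling. PLIN2, the droplet coat protein found in most cells, had 0.09 (FDR = 0.779). Without the 3 pigs highest in ADIPOQ 5 of the 16 genes were called, and with RIN and batch alone 5 were called lower. Over all genes, 3358 of 11095 were called without those pigs, 1720 of them lower, and 1844 of 11146 were called lower with RIN and batch alone. Of 6 tested genes of triglyceride breakdown, ABHD5, the activator of adipose triglyceride lipase, was lower by -0.42 (FDR = 0.00408) and MGLL by -0.34 (FDR = 0.091; 0.106 with RLE factors), while the lipase PNPLA2 had -0.09 (FDR = 0.768).

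Of 10 tested genes that handle LPL protein and carry fatty acids, 5 were called lower in Landrace (17.5% of all genes) and none higher, with a median of -0.28. SLC27A1, a fatty acid transporter of muscle, was lower in Landrace by -0.93 (FDR = 2.51e-06), ANGPTL4, a secreted inhibitor of LPL, by -0.94 (FDR = 0.000115), and FABP3, the fatty acid carrier of muscle, by -0.91 (FDR = 0.00358). FABP5 was lower by -0.54 (FDR = 0.0319) and SEL1L, which helps LPL fold, by -0.32 (FDR = 0.0214). GPIHBP1, the capillary protein that anchors LPL, had -0.02 (FDR = 0.949), and the LPL maturation factor LMF1 had 0.10 (FDR = 0.577). The genes called lower beside LPL were thus a transporter, a pair of carriers, a folding factor and an inhibitor.

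Other genes typical of fat cells were then read for the same difference. Of 15 such genes 13 had an ID with that symbol, 5 passed the filter and none was called in edgeR, with a median coefficient of 0.05. The 5 were PPARG, PLIN4, CFD, ADIRF and NAT8L. TRARG1 and THRSP, named above as nearest to PLIN1, ADIPOQ or LEP, did not pass the filter. The 5 genes thus cannot show whether the fat cell genes most like those members share their breed difference. PPARG had -0.36 (FDR = 0.471), PLIN4 0.35 (FDR = 0.17) and CFD, the adipokine adipsin, 0.05 (FDR = 0.888). RETN had no read pair in any Duroc pig and in 23 of the 28 Landrace pigs. For the receptors of the hormones, CDH13, which binds adiponectin on vessels and muscle, was lower in Landrace by -0.45 (FDR = 0.00137), and ADIPOR1 (-0.02, FDR = 0.857) and ADIPOR2 (-0.27, FDR = 0.116) were not called. LEPR, the leptin receptor, reached at most 0.251 CPM in any pig.

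Markers of other cell types were counted in the same fit, against the 17.5% of all genes called lower in Landrace. Of 7 tested endothelial markers 6 were called lower in Landrace, among them KDR by -1.48 (FDR = 9.52e-06), PECAM1 by -1.01 (FDR = 0.00303) and CDH5 by -0.95 (FDR = 3.68e-05). Their summed level ranged from 72.4 to 207 CPM in Duroc and from 39.8 to 177 CPM in Landrace, and none of the 7 was at 0 throughout. Of 5 markers of pericytes and smooth muscle 4 were called lower (summed level 153 to 432 CPM in Duroc, 137 to 373 CPM in Landrace). Of 6 slow-fibre genes 2 were called lower (summed level 4620 to 14900 CPM in Duroc and 1530 to 18500 CPM in Landrace), 6 with library-size scaling and 1 without the 3 pigs highest in ADIPOQ, and 3 of 4 fast-fibre genes were called higher (24700 to 50600 and 18200 to 69700 CPM). Fibroblast markers gave 2 lower calls of 6 (572 to 4250 and 562 to 12400 CPM) and leukocyte markers 1 of 8 (15.7 to 64.5 and 10.2 to 85.2 CPM), and neither list had a call without those 3 pigs. Without them 1720 of 11095 genes were called lower in Landrace. The part of these cell types and fibre types in the breed differences of LPL, SCD, ADIPOQ and FABP4 was not tested.

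**Figure D5:**
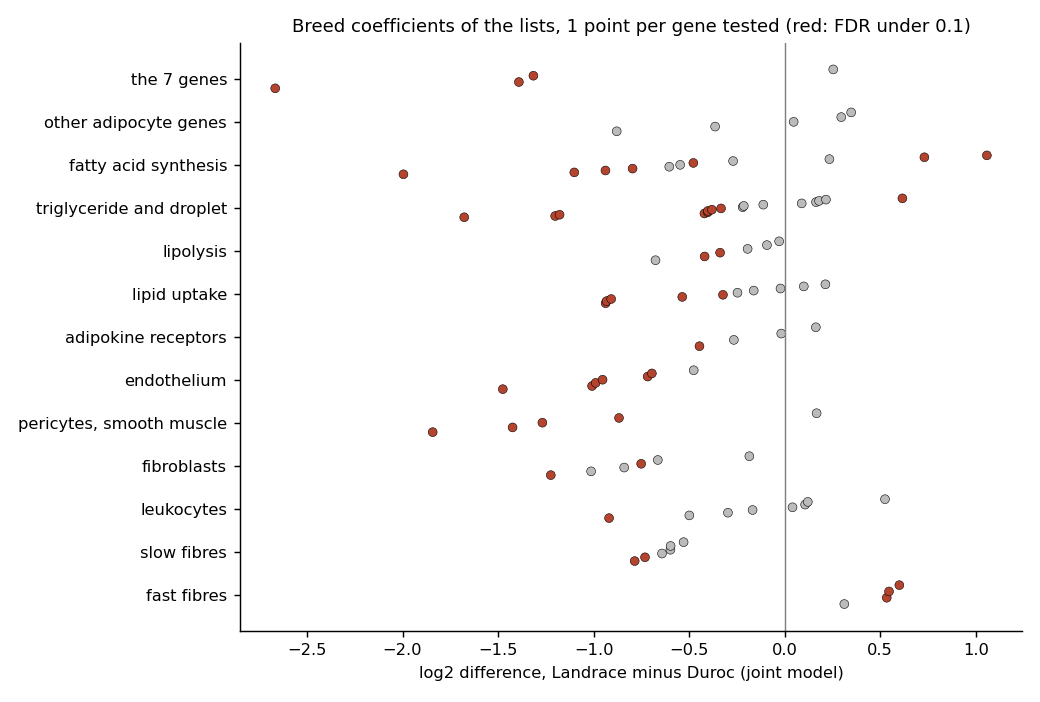
Breed coefficients (Landrace minus Duroc, log2 scale) of the genes tested in each list, with 1 point per gene and red for an FDR under 0.1. Most red points of lipid uptake, fatty acid synthesis, endothelium and pericytes lie to the left of 0, whereas the 5 other adipocyte genes are all grey and the called fast-fibre genes lie to the right.

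RNA integrity went with the level of a large part of the transcriptome. None of the 4 genes tested was called for RIN, whereas 51.8% of the 11146 genes were (2667 higher and 3108 lower with higher RIN; with scaling by library size alone, 6225 and 882). At an unadjusted p under 0.05 none of the 4 passed either, in edgeR. Per unit of RIN, the log2 coefficient was 1.39 for ADIPOQ (SE 0.818, FDR = 0.169), 0.29 for LPL (SE 0.199, FDR = 0.25), 0.38 for SCD (SE 0.346, FDR = 0.388) and -0.004 for FABP4 (SE 0.207, FDR = 0.989). For PLIN1 and CIDEC the fit without a filter gave 1.61 (SE 0.877, FDR = 0.19) and 1.08 (SE 0.6, FDR = 0.201). With scaling by library size alone, which moved the median of all genes to 0.30 per unit, LPL (0.61, FDR = 0.0199) and ADIPOQ (1.64, FDR = 0.0886) were called. LPL was also called without Landrace 8 (FDR = 0.0696) or without Landrace 28 (FDR = 0.0843).

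The genes around LPL were read for RIN in the same fit. Of the 10 genes of LPL handling and fatty acid uptake, 7 were called lower with higher RIN and 2 higher, for example GPIHBP1 at -0.58 (FDR = 0.000507), FABP3 at -0.56 (FDR = 0.00708) and VLDLR, a receptor for triglyceride-rich lipoproteins, at 0.55 (FDR = 0.000377). The share of all genes called lower with higher RIN was 27.9%. With library-size scaling 2 of the 10 were called lower and 3 higher. Of the 6 slow-fibre genes 5 were called lower with higher RIN, for example TNNI1 at -1.0 (FDR = 0.000312), and 2 were with library-size scaling.

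For age, 1.76% of all genes tested were called (edgeR FDR under 0.1) and none of the 4 was. Per 10 days, SCD had a coefficient of 0.75 (SE 0.381, unadjusted p = 0.0554, edgeR FDR = 0.325), LPL 0.32 (SE 0.196, FDR = 0.428), ADIPOQ 0.47 (SE 0.855, FDR = 0.835) and FABP4 0.20 (SE 0.252, FDR = 0.745). Among the genes around LPL, its inhibitor ANGPTL4 was higher with age (0.49, FDR = 0.0965), and so were the endothelial KDR (0.72, FDR = 0.0693) and CDH5 (0.45, FDR = 0.0965). With library-size scaling none of these 3 was called, and CDH5 was not without the 3 pigs highest in ADIPOQ (FDR = 0.111). With RIN and batch alone their coefficients were -0.16, 0.06 and -0.10, so ANGPTL4 and CDH5 turned sign and none was called. Within the Landrace pigs alone SCD had 1.3 per 10 days (SE 0.635, unadjusted p = 0.0511, FDR = 0.447) and LPL 0.65 (SE 0.327, unadjusted p = 0.0579, FDR = 0.461), and within the Duroc pigs they had 0.36 (SE 0.404) and -0.18 (SE 0.302). The tests of age by breed gave unadjusted p = 0.871 for SCD and 0.217 for LPL.

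For feed conversion ratio, the question of the study, none of the 4 genes was called, and none of the 11146 genes tested was (0.0%, edgeR). At an unadjusted p under 0.05 there were 968 genes, ADIPOQ among them, while DESeq2 called 5 genes and limma-voom 0. ADIPOQ was not tested by DESeq2, which needed at least 5 counts in every pig. ADIPOQ was higher with higher FCR, that is in less efficient pigs, by a coefficient of 1.08 per 0.1 of FCR (SE 0.4, 95% interval 0.301 to 1.87, unadjusted p = 0.0101), which did not pass adjustment (edgeR FDR = 0.529). Leaving out each pig in turn gave 0.88 to 1.27, and the fit with RIN and batch alone gave 0.47 (FDR = 0.395). PLIN1 had 1.08 (unadjusted p = 0.0158, FDR = 0.589) and CIDEC 0.68 (unadjusted p = 0.0231, FDR = 0.603) in the fit without a filter, so the 3 linked fat cell genes had coefficients of the same sign, and none passed adjustment. These 3 are read largely in the same pigs and are not independent of each other.

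LPL, SCD and FABP4 had small coefficients for FCR. They were 0.10 for LPL (SE 0.0914, 95% interval -0.084 to 0.274, FDR = 0.764), 0.17 for SCD (SE 0.177, -0.175 to 0.52, FDR = 0.782) and 0.09 for FABP4 (SE 0.111, -0.126 to 0.31, FDR = 0.815). LEP had 0.38 in the fit without a filter (SE 0.532, FDR = 0.923). None of the genes of fatty acid synthesis, triglyceride synthesis, lipolysis or lipid uptake was called for FCR in the joint model. With RIN and batch alone, 1 of 11 genes of fatty acid synthesis was called higher with higher FCR. In that fit 3 of 6 genes of lipolysis and 1 of 10 of lipid uptake were called lower. Of all 11146 genes, 127 were called higher and 294 lower there.

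The model was also fitted within each breed. With edgeR no gene was called for FCR in the 13 Duroc pigs (0.0% of 10509 genes, 564 at an unadjusted p under 0.05) or in the 28 Landrace pigs (0.0% of 11020, 606 at an unadjusted p under 0.05). DESeq2 called 10 genes within Duroc and 4 within Landrace, and within Landrace edgeR called 3 without a filter and 1 without age. None of the 7 genes was among these, but not all of them could be. DESeq2, which needed at least 5 counts in every pig, did not test PLIN1, LEP and CIDEC in either breed, nor ADIPOQ in Landrace. The edgeR fit without age did not test PLIN1, LEP and CIDEC. In the Landrace pigs ADIPOQ had a coefficient of 1.64 per 0.1 of FCR (SE 0.484, unadjusted p = 0.00238, edgeR FDR = 0.794), PLIN1 1.6 (unadjusted p = 0.00671, FDR = 0.735) and CIDEC 0.95 (unadjusted p = 0.0132, FDR = 0.748). In the Duroc pigs ADIPOQ had 0.57 (SE 0.824, FDR = 1.0) in the fit without a filter. The difference between the breeds in the ADIPOQ slope was 1.02 (SE 0.759, unadjusted p = 0.188, FDR = 0.938). Its 95% interval, -0.469 to 2.507, was wide and included 0. With edgeR no gene was called for the interaction of breed with FCR, RIN or age (0.0% each; 582, 541 and 506 genes at an unadjusted p under 0.05). For RIN by breed limma-voom called 1 gene and edgeR without the 2 pigs of RIN below 7 called 123. None of the 4 members that passed the filter was among these. In the edgeR fit of all pigs the 4 genes had unadjusted p-values from 0.188 to 0.987 in these tests.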

How the data were processed

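Unstranded mRNA libraries of psoas major muscle were sequenced from 41 boars. Reads had been trimmed by the authors (Trimmomatic 0.39), then mapped to Sscrofa11.1 with Ensembl annotation 96 and counted per gene by STAR 2.7.1a, so the deposited values are whole-number counts without normalization or filtering. Between 69.9% and 80.9% of the pairs fell on genes. The unstranded column was used, and overlapping genes and near-identical copies can share or lose pairs. Breed, FCR, RIN, age and batch came from the sample labels. No library was left out, and no library was held more than once, since in each of 820 comparisons of libraries the difference exceeded counting noise. The labels describe 1 sample per animal.

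Genes were named with a table of Ensembl IDs, which gave a symbol for 14857 of the 25880 IDs, and positions came from the RefSeq annotation of the same build. The model FCR + RIN + age + breed + batch (a factor of 5 levels) was fitted across all genes that passed filterByExpr (minimum count 10, total 15) with the legacy quasi-likelihood test of edgeR 4.0.16 and TMM factors in R 4.3.3. An FDR (Benjamini-Hochberg) under 0.1 was a call, as in the paper. SEs were derived from the coefficient and its F statistic. The same fit without a filter served PLIN1, LEP and CIDEC. Alternatives were DESeq2 1.42.0 (at least 5 counts in every pig), limma 3.58.1 with voom, RLE factors, library size alone, batch as a number, models without age, without FCR or with RIN and batch alone, leaving out 2 pigs with RIN below 7, and, chosen after seeing the data, leaving out the pigs highest in ADIPOQ and each pig in turn. CPM used TMM-scaled libraries of 14.4 M to 31.9 M pairs. Correlations and single-gene differences used log2(CPM + 1), with 100000 two-sided permutations (SciPy 1.17.1, pandas 2.3.3 and NumPy 2.4.6 under Python 3.11.15; figures with matplotlib 3.10.9). Differences on that scale understate changes of low genes. A count of 0 allows up to 3 pairs, for counting error only. The scripts were tested on simulated counts. The genes named are the 7 members, the 3 genes most like each member (5 for their mean), and genes of the lists. The members and the lists were chosen with earlier results of these data known.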

Additional observations from a re-analysis of the deposited data

How the results depend on the processing

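LPL was called lower in Landrace in every alternative run. Beside the lost breed calls of ADIPOQ, SCD and CIDEC given above, the sign of small coefficients that passed no test changed. LEP turned to 0.97 for breed without the 3 pigs highest in ADIPOQ, and its plain difference was 0.003 with a pseudocount of 0.1 and 0.016 without those pigs. For RIN, 2 of the 4 genes were called with library size alone and 2 with batch alone beside RIN, and leaving out 1 pig gave between 0 and 1 calls. Of all 11146 genes, 7107 were called for RIN with library size alone and 5543 with batch alone beside RIN. FABP4 for RIN was 0.012 with DESeq2, 0.006 with RLE factors, 0.314 with library size alone, 0.06 without a filter, 0.228 without pigs of RIN below 7, 0.009 without age, and -0.136 to 0.215 with 1 pig left out. For age, ADIPOQ was -0.82 with limma-voom, -0.18 without the 3 pigs, -0.31 without the highest pig and -0.31 to 0.92 with 1 pig left out, while PLIN1, LEP and CIDEC were -0.33, -1.02 and -0.082 without the 3 pigs. With RIN and batch alone LPL was -0.24 for age and -0.084 for FCR. The causes were not tested. Over all genes, the 196 calls for age became 814 with batch as a number, 685 without FCR, 545 with DESeq2, 408 with RIN and batch alone, 117 and 130 without the highest pig or the 3 highest, 99 without a filter and 45 with library size alone. Calls for FCR, 0 in the joint model, were 5 with DESeq2 and 421 with RIN and batch alone. Depth limits PLIN1, CIDEC and above all LEP. No paired analysis was possible because the replicate numbers only name pigs.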
